A study of Sus scrofa with 24 samples.

Results

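The genes described here encode the muscle acetylcholine receptor and the proteins that cluster it beneath the motor nerve ending. They are the receptor subunit genes CHRNA1, CHRNB1, CHRND, CHRNE and CHRNG, the kinase gene MUSK with its cytoplasmic activator DOK7, the receptor anchor gene RAPSN, the nerve-derived ligand gene AGRN and the agrin receptor gene LRP4. Members were the probe sets whose platform gene symbol is 1 of these 10 names. Probe sets were found for 8 of the 10 genes, 13 in all, out of 13755 gene symbols on the array. RAPSN and LRP4 had none under these symbols and have no values here.

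Expression was measured with 1 Affymetrix Porcine Snowball array per fetus in LDM, the longissimus dorsi muscle that runs along the spine, of 24 F2 pig fetuses at 63 days post conception (dpc). They were bred from German Landrace and Pietrain pigs, and the labels name no treatment. By the study's methods all had 1 sire, and discordant sibs were chosen for extremes of fetal weight. The study asked how intrauterine growth restricted (IUGR) fetuses differ from those appropriate for gestational age (AGA). The deposited labels place no fetus in a weight group, whereas the study itself lists these fetus numbers as 12 IUGR and 12 AGA. Values are given beside that listing as a description, with no test and no fold change between the 2 listings, and sibs were not compared within dams.

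Vertebrate muscle makes its receptor as a pentamer of 2 alpha subunits with a beta, a delta and either a gamma or an epsilon subunit. The gamma subunit belongs to the fetal receptor, which lies along the whole fibre before innervation, and epsilon replaces it at the mature synapse. Agrin released by the motor nerve binds LRP4, which activates MuSK. MuSK with Dok-7 then gathers receptors through rapsyn. Much of this is known from mouse and rat.

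All values are log2 signals after robust multichip average (RMA) normalization, so that a difference of 1 is 2-fold. Signals of different probe sets cannot be ranked against each other. Array medians lay between 6.61 and 6.73. Of the 13 probe sets, 12 lay above the median of their array in all 24 fetuses, and 1 of the 4 for AGRN lay above it in none. Only the brightest CHRNA1 probe set and CHRNG had medians above 9.71, the signal of the brightest class of background control probes, which match no transcript. Probes of that class hold 24 G or C bases. Member probe sets were not compared with control classes of their own G and C content. The other probe sets can hold more unspecific signal. Bulk muscle cannot tell apart fewer fibres or synapses from less RNA per fibre.

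The alpha subunit gene CHRNA1 tended to sit high in fetuses listed as IUGR. Each receptor holds 2 copies of its product, which carries the acetylcholine binding site. On its brighter probe set the signal was 11.41 at lowest, 11.65 at the median and 11.91 at highest in the 12 fetuses listed as IUGR, against 11.15, 11.34 and 11.62 in the 12 listed as AGA. The highest values were 11.91 in fetus 338 and 11.87 in fetus 384, and the lowest was 11.15 in fetus 340. The ranges overlapped, with 7 fetuses listed as IUGR above every fetus listed as AGA and 9 listed as AGA below every fetus listed as IUGR. At least 7 fetuses beyond the other listing in that direction were found in 11.4% of the 14867 filtered named probe sets, those brighter than the median of their array in at least 20 fetuses. The share of filtered probe sets with 9 or more fetuses listed as AGA below every fetus listed as IUGR was not computed. The name of this probe set carries the suffix that Affymetrix gives to sets whose probes can match more than 1 transcript.

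The dimmer CHRNA1 probe set gave 7.74, 7.96 and 8.15 (lowest, median and highest) in fetuses listed as IUGR, against 7.63, 7.80 and 8.06 in those listed as AGA. Both medians stood in the same order as on the brighter set, with more overlap. The 2 probe sets followed each other only loosely over fetuses (r = 0.32, 24 fetuses).

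The fetal subunit gene CHRNG ran the other way. Its signal was 9.52 at lowest, 9.97 at the median and 10.48 at highest in fetuses listed as IUGR, against 9.99, 10.27 and 10.59 in those listed as AGA. Fetus 311 was lowest and fetus 307 highest. The ranges overlapped, and 7 fetuses listed as IUGR lay below every fetus listed as AGA. As many or more did so in 9.65% of filtered probe sets. CHRNG had the widest spread of all member probe sets, with a span, here the 90th minus the 10th percentile over fetuses, of 0.60 (1.52-fold).

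The delta subunit gene CHRND, the direct neighbour of CHRNG in the RefSeq annotation of the pig assembly Sscrofa11.1, had 8.32, 8.69 and 9.02 in fetuses listed as IUGR, against 8.59, 8.88 and 9.06 in those listed as AGA (lowest, median and highest). It was lowest in fetus 274 and highest in fetus 307. Of the fetuses listed as IUGR, 4 lay below every fetus listed as AGA. The share of filtered probe sets with 4 or more was not computed.

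The adult subunit gene CHRNE was already measured above the array median at 63 dpc in all fetuses, although its median of 7.33 is under the brightest background class. It had 7.06, 7.24 and 7.67 in fetuses listed as IUGR, against 7.24, 7.45 and 8.16 in those listed as AGA. Fetus 313 was highest at 8.16, followed by fetus 272 at 7.80. The medians of the fetal and the adult subunit gene thus lay in the same order between the listings, both lower in the fetuses listed as IUGR. RefSeq annotates the pig CHRNE locus as a long non-coding RNA, and the transcript this probe set reads was not checked.

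CHRNB1, which encodes the beta subunit, had overlapping ranges and close medians. Its values were 9.56, 9.67 and 10.12 in fetuses listed as IUGR, against 9.17, 9.58 and 10.08 in those listed as AGA. Fetuses 303 and 307, of different listings, were the 2 highest, and fetus 340 the lowest. Its span of 0.34 lay at the percentile 23 of filtered probe sets.

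**Figure D1:**
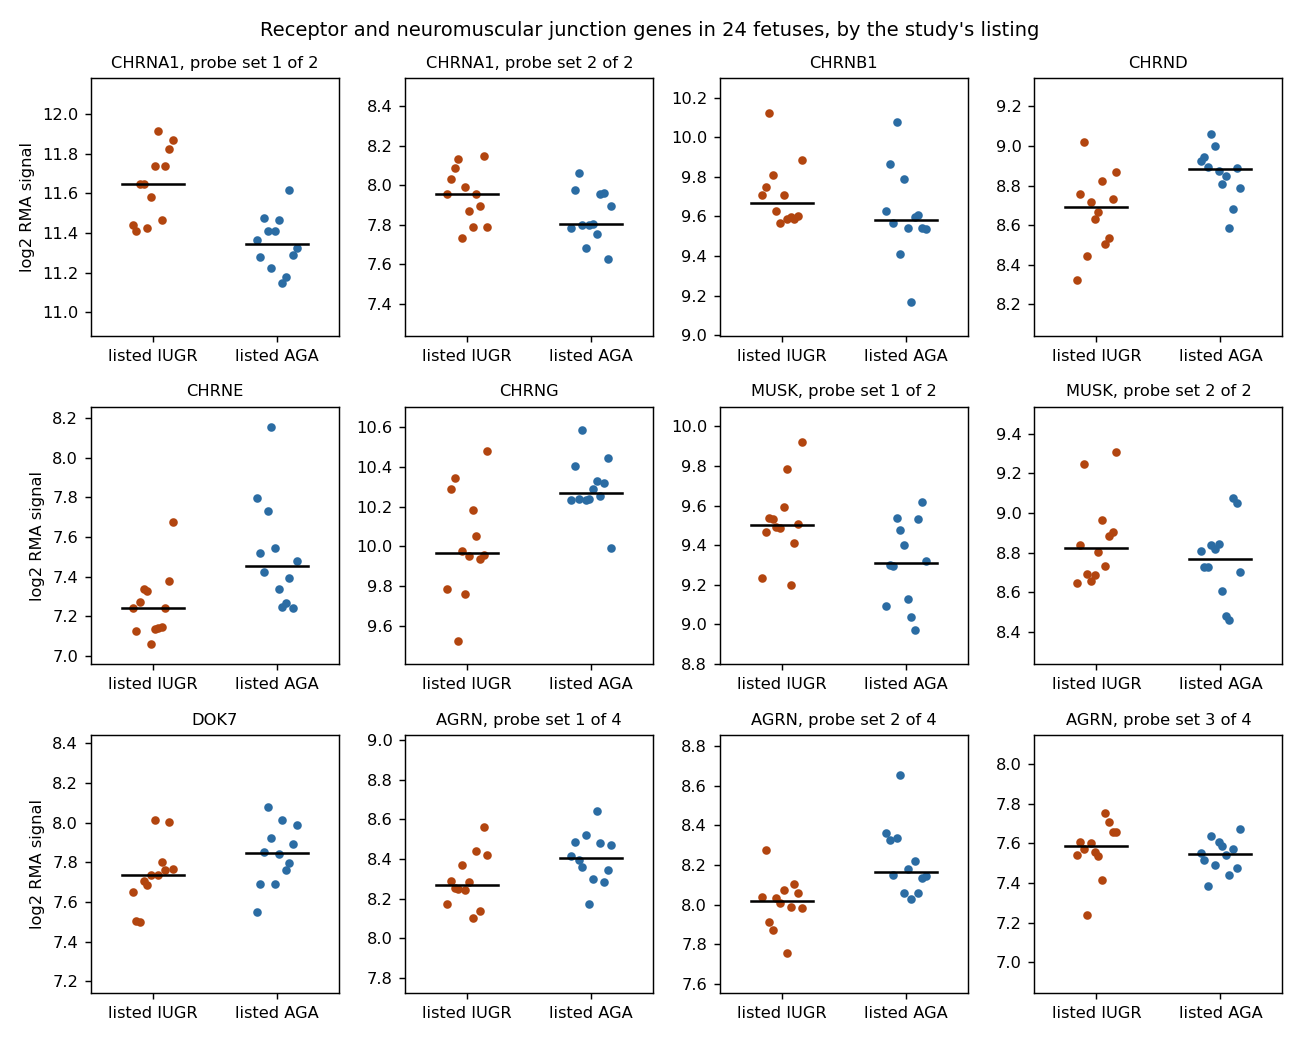
Each panel plots 1 of the 12 member probe sets that passed the filter, as log2 RMA signal per fetus (points) with the median (line), for the 12 fetuses the study lists as IUGR (left) and the 12 it lists as AGA (right). All panels span the same 1.3 log2 units. The CHRNA1 points lie higher and the CHRNG points lower in the left column, and the 2 columns overlap in every panel.

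Among genes of receptor clustering, MUSK, which encodes the receptor kinase of the postsynaptic membrane, had 9.20, 9.50 and 9.92 on its brighter probe set in fetuses listed as IUGR, against 8.97, 9.31 and 9.62 in those listed as AGA. The second probe set gave 8.65, 8.82 and 9.31 in fetuses listed as IUGR, against 8.46, 8.77 and 9.08 in those listed as AGA, in the same order of listings. On both probe sets fetus 384 was highest and fetuses 352 and 340 the 2 lowest. The 2 sets moved together (r = 0.77, 24 fetuses), the closest match between probe sets of 1 member gene.

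DOK7, whose product binds and activates MuSK from inside the fibre, had 7.50, 7.74 and 8.01 in fetuses listed as IUGR, against 7.55, 7.85 and 8.08 in those listed as AGA. The ranges nearly coincided. Its highest value was in fetus 307, which was also highest for CHRND and CHRNG.

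AGRN encodes agrin, which is made by motor neurons and, in other isoforms, by muscle. Its brightest probe set had 8.10, 8.27 and 8.56 in fetuses listed as IUGR, against 8.17, 8.41 and 8.64 in those listed as AGA. The second had 7.76, 8.02 and 8.27 in fetuses listed as IUGR, against 8.03, 8.17 and 8.65 in those listed as AGA. On this set 6 fetuses listed as IUGR lay below every fetus listed as AGA. The share of filtered probe sets with 6 or more was not computed. The third had 7.24, 7.58 and 7.75 in fetuses listed as IUGR, against 7.38, 7.55 and 7.67 in those listed as AGA, in the opposite order of medians. The r between these 3 sets ran from 0.08 to 0.44, and the isoforms each one reads are not given in the sources used here. The fourth set, below the array median in all fetuses, ran from 5.35 to 6.04.

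Over the 12 probe sets that passed the filter, the median of fetuses listed as IUGR was the higher in 6 and that of fetuses listed as AGA in 6. Among all 14867 filtered named probe sets the IUGR median was the higher in 36.1%. With the mean of a gene's probe sets the IUGR median was the higher in 3 of 8 member genes (37.5%), against 35.8% of all filtered genes. The ranges of the 2 listings overlapped in all 13 member probe sets, and they failed to overlap in 0.114% of filtered probe sets.

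Spread over the fetuses was ordinary for this array. The member probe sets had a median span of 0.44, against 0.43 for all filtered named probe sets, and 7 of 12 were wider than 0.43. CHRNG (0.60), CHRNE (0.58), the brighter CHRNA1 set (0.56) and the brighter MUSK set (0.50) were widest, and the third AGRN set (0.24) narrowest. Among filtered probe sets CHRNG lay at the percentile 80.7 and the third AGRN set at 3.22.

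**Figure D2:**
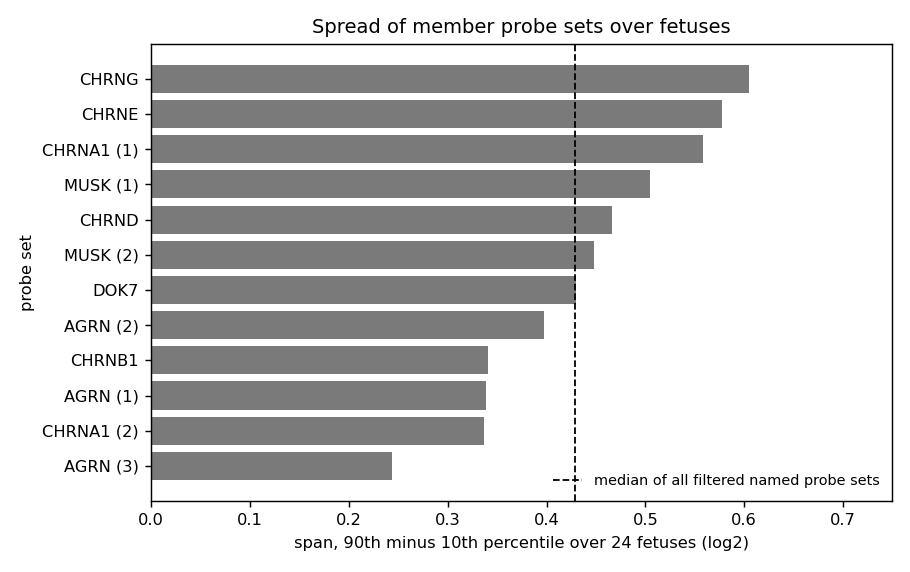
Bars give the span of each member probe set that passed the filter, the 90th minus the 10th percentile of log2 signal over 24 fetuses, with numbers in brackets for genes with several probe sets. The dashed line is the median of all filtered named probe sets (0.43), and CHRNG, CHRNE and CHRNA1 (1) reach furthest beyond it.

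The receptor subunit genes did not move as 1 block. All 28 pairs of the 8 measured genes, each taken at its brightest probe set, were correlated over the 24 fetuses with 2-sided permutation tests (100000 resamples) adjusted by Benjamini-Hochberg over the pairs. Fetuses of 1 dam are not independent and the labels give no dam, so these p-values may be too small. The study lists 8 dams, and the pairs were therefore also computed on values centred on the dam and permuted among fetuses of 1 dam, a setting added after seeing the data. An adjusted p under 0.05, here a call, was reached by 3 pairs, 6 had an unadjusted p below that value, and 20 had a positive r. An absolute r as large as that of the weakest of the 3 was found in 13.9% of all pairs of filtered genes, so 3 of 28 is near the share on the array at large. Within dams 1 of the 3 pairs was called.

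CHRND and CHRNG, the neighbouring delta and gamma genes, were the closest pair. Pearson's r was 0.774 (permutation p = 1e-05, the smallest the draws can give, adjusted p = 0.00028) and Spearman's rho 0.705 (p = 0.00017, adjusted p = 0.00476). Pearson's r was 0.678 without the 2 fetuses farthest from the CHRND median. Within dams it was 0.876 (permutation p = 1e-05, adjusted p = 0.00028). Within the listings, given as a description, r was 0.79 over the 12 fetuses listed as IUGR and 0.41 over the 12 listed as AGA.

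CHRNA1 with MUSK was the second pair, with r = 0.690 (permutation p = 0.00019, adjusted p = 0.00266), rho = 0.581 (p = 0.00336, adjusted p = 0.0314) and 0.539 left for r once the 2 fetuses farthest from the CHRNA1 median were omitted. Within dams r was 0.753, but the pair was not called (permutation p = 0.0105, adjusted p = 0.117). Within the listings r was 0.74 over fetuses listed as IUGR and 0.40 over those listed as AGA. This relation belongs to the brighter CHRNA1 probe set. That set had r = 0.69 and 0.58 with the 2 MUSK sets, and the dimmer one r = -0.08 and -0.03. With the mean of a gene's probe sets r was 0.472 and the pair was no longer called (adjusted p = 0.0905).

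CHRND with CHRNE was the third pair, at r = 0.561 (permutation p = 0.00416, adjusted p = 0.0388), rho = 0.600 (p = 0.00231, adjusted p = 0.0314) and 0.628 left for r once the 2 fetuses farthest from the CHRND median were omitted. Within dams r was 0.686, and the pair was not called (permutation p = 0.0284, adjusted p = 0.138). Within the listings r was 0.24 over fetuses listed as IUGR and 0.63 over those listed as AGA. It was close to the threshold. Leaving out any 1 of 11 fetuses ended the call, with adjusted p up to 0.0893 without fetus 313.

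Of the subunits that share a receptor with it, CHRNA1 had r = 0.329 with CHRNB1 (permutation p = 0.117, adjusted p = 0.273), -0.276 with CHRNG (p = 0.191, adjusted p = 0.357), -0.267 with CHRNE (p = 0.209, adjusted p = 0.366) and -0.199 with CHRND (p = 0.349, adjusted p = 0.575). None was called. Their rho was 0.285 (permutation p = 0.176), -0.356 (p = 0.0883), -0.290 (p = 0.17) and -0.327 (p = 0.117) in that order. Omission of the 2 fetuses farthest from the CHRNA1 median gave r = 0.338, -0.491, -0.352 and -0.334, and omission of the 2 farthest from the median of the partner gene gave r = 0.401, -0.215, -0.064 and -0.220. The negative values thus depend on which fetuses are left out. Within the listings CHRNA1 and CHRNG had r = 0.24 over fetuses listed as IUGR and 0.05 over those listed as AGA, both above the pooled value.

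MUSK and DOK7, partners in 1 complex, had no detectable relation over fetuses (r = 0.024, permutation p = 0.910, adjusted p = 0.910, rho = 0.098 with p = 0.647, and r = 0.028 when the 2 farthest fetuses were omitted). AGRN had r = -0.497 with CHRNA1 (permutation p = 0.0136, adjusted p = 0.0952), rho = -0.517 (p = 0.0104, adjusted p = 0.0728) and, with the 2 fetuses farthest from the CHRNA1 median omitted, r = -0.498. With the 2 farthest from the AGRN median omitted, r was -0.287. Within the listings r was -0.01 over fetuses listed as IUGR and -0.76 over those listed as AGA. This pair was called without fetus 376, without fetus 384 and without both, when r was -0.801 (adjusted p = 0.00028). Fetuses 376 and 384 are listed as IUGR. CHRNB1 with DOK7 (r = -0.359, permutation p = 0.0838, adjusted p = 0.213, rho = -0.470 with p = 0.0214, and r = -0.549 when the 2 farthest were omitted) was called only without fetus 307 (r = -0.640, adjusted p = 0.00784).

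**Figure D3:**
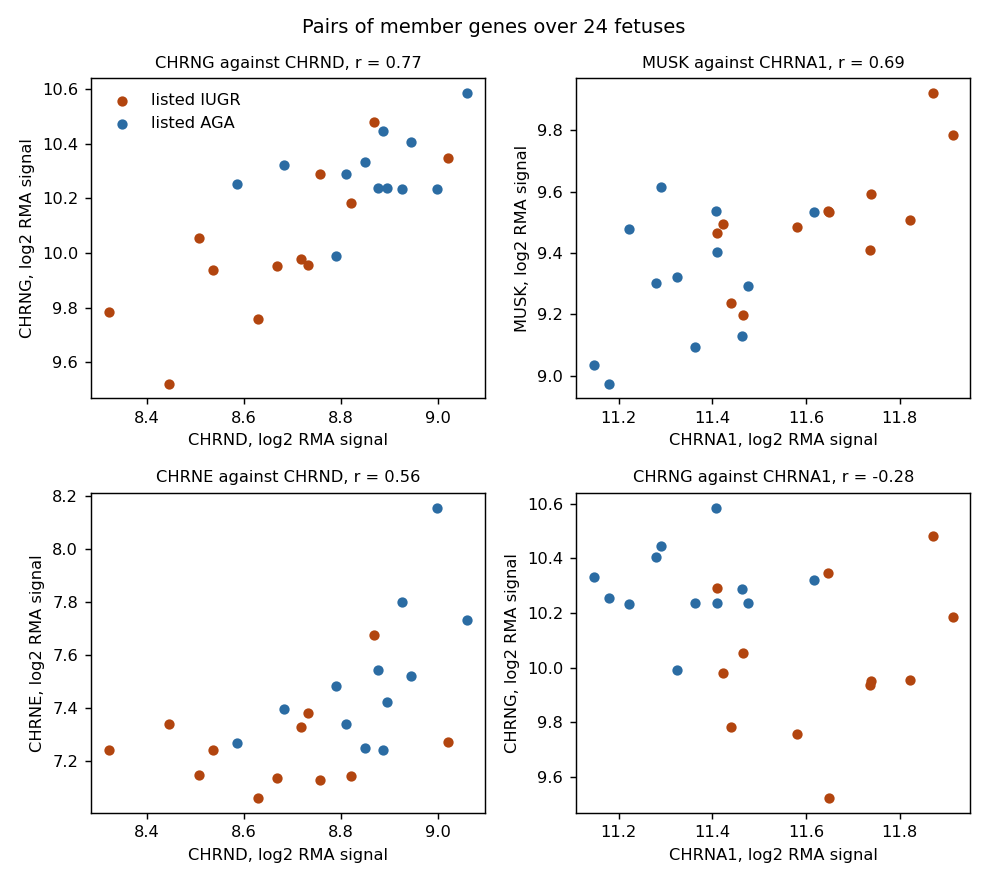
Each panel plots the brightest probe sets of 2 genes as log2 RMA signal, 1 point per fetus, coloured by the study's listing. CHRNG rises with CHRND (r = 0.77) and MUSK with CHRNA1 (r = 0.69), CHRNE rises less tightly with CHRND (r = 0.56), and CHRNG against CHRNA1 (r = -0.28) shows no called relation, with most fetuses listed as AGA at the upper left.

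**Figure D4:**
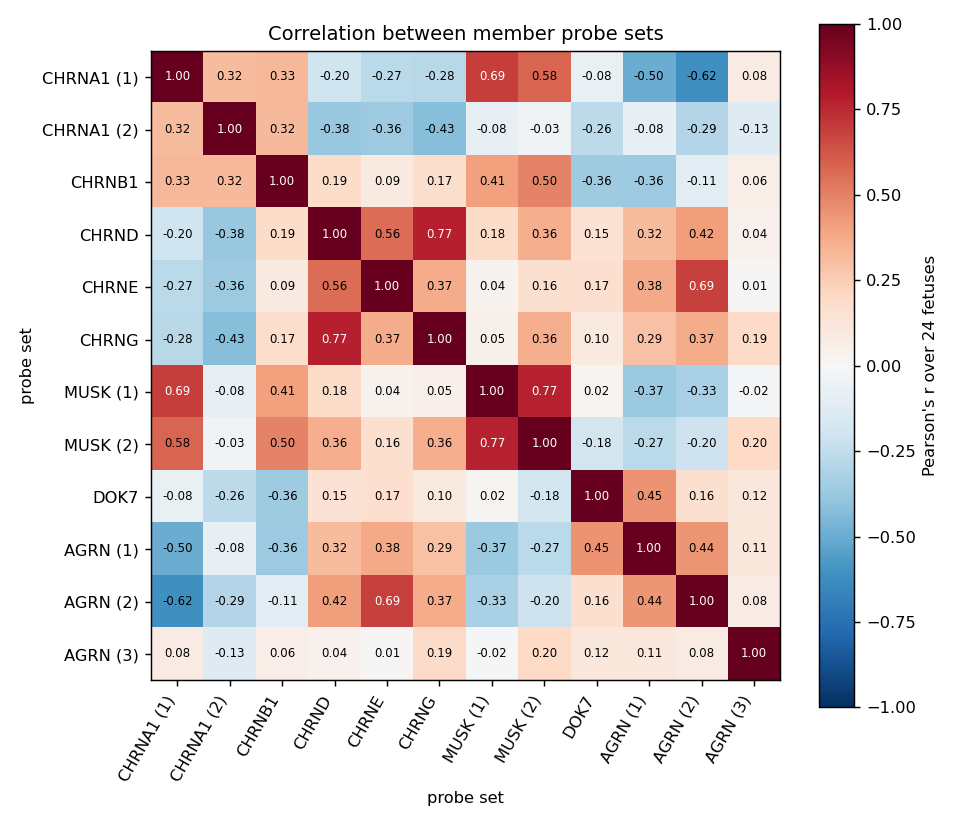
The heat map gives Pearson's r over 24 fetuses between the 12 member probe sets that passed the filter, with probe sets of 1 gene numbered from the brightest. CHRND has positive r with CHRNG (0.77) and CHRNE (0.56), AGRN (2) with CHRNE (0.69), CHRND (0.42) and CHRNG (0.37), and CHRNA1 (1) with both MUSK sets (0.69 and 0.58). CHRNE with CHRNG (0.37) was not called.

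CHRNA1 and its partner subunits were also compared within arrays, each gene at its brightest probe set. The dimmer CHRNA1 set was not compared in this way. These differences were chosen after the values had been seen, for genes whose listed medians lay in opposite order, so that their separation follows from that choice. They are set relative to their median over the 24 fetuses, since the level of 1 probe set cannot be compared with that of another. CHRNG minus CHRNA1 was -0.83 at lowest, -0.39 at the median and 0.18 at highest in fetuses listed as IUGR, against -0.04, 0.24 and 0.48 in those listed as AGA. The ranges overlapped, and the span was 0.96. CHRND minus CHRNA1 was -0.55, -0.38 and 0.03 in fetuses listed as IUGR, against -0.28, 0.17 and 0.43 in those listed as AGA.

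For the fetal and the adult subunit gene, whose listed medians lay in the same order, CHRNG minus CHRNE was -0.63, -0.06 and 0.35 in fetuses listed as IUGR, against -0.74, 0.05 and 0.39 in those listed as AGA. Fetus 313, with the highest CHRNE value, had the lowest difference. A difference within an array shows unequal change and does not say which gene changed.

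**Figure D5:**
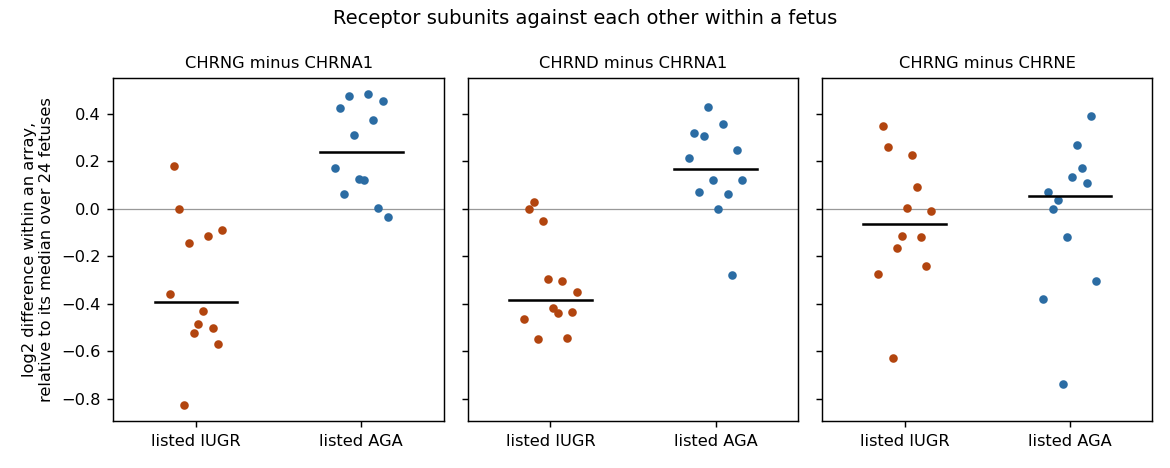
Points give the log2 difference between 2 subunit genes within an array, each gene at its brightest probe set. Differences are relative to their median over 24 fetuses, for fetuses listed as IUGR (left) and AGA (right) with the median as a line. CHRNG minus CHRNA1 lies between -0.83 and 0.18 on the left and between -0.04 and 0.48 on the right, and CHRNG minus CHRNE between -0.63 and 0.35 on the left and between -0.74 and 0.39 on the right.

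Several members moved with the main axis of the arrays and with background signal. The first principal component of the 9710 filtered genes held 39.7% of the variance and is oriented here to rise with the background controls (r = 0.77). CHRNE (r = 0.66), AGRN (0.66), CHRNG (0.62) and CHRND (0.62) had a positive r with it, CHRNA1 (-0.75) and MUSK (-0.42) a negative one, and DOK7 (0.21) and CHRNB1 (-0.11) values nearer 0. The share of all filtered genes with an r as large with this component was not computed, so these values are not read as particular to the members. The part of this axis in the order of the listings was not tested. With this component removed from every gene, CHRND with CHRNG (r = 0.631, adjusted p = 0.0113, 24 fetuses) and CHRNA1 with MUSK (r = 0.621, adjusted p = 0.0113) were still called by the permutation test. CHRND with MUSK was called too (r = 0.623, adjusted p = 0.0113, against r = 0.180 before), and CHRND with CHRNE was not (r = 0.261, adjusted p = 0.380).

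The mean signal of the 39 GC-rich background controls (at least 13 G or C bases in a probe) was related to 2 of the 8 genes. For AGRN, r was 0.784 (permutation p = 3e-05, adjusted p = 0.00024) and rho 0.769 (p = 4e-05), with 0.735 for r when the 2 farthest fetuses were omitted. For CHRNE, r was 0.666 (permutation p = 0.0003, adjusted p = 0.0012) and rho 0.609 (p = 0.00185), with 0.494 for r after that omission. An absolute r at least as large as that of CHRNE was found for 14.8% of filtered genes. For CHRNA1, r was -0.471 (permutation p = 0.0202, adjusted p = 0.0539) and rho -0.484 (p = 0.0177, adjusted p = 0.0472, so that the rank correlation was called), with -0.240 for r after that omission. Pearson's r was called by the permutation test without fetus 363, 370, 376 or 384. Within dams AGRN (r = 0.785, adjusted p = 0.018) and CHRNE (r = 0.684, adjusted p = 0.0016) were called by the permutation test. The other 5 genes had r between -0.30 and 0.33. With the control signal regressed out, CHRND with CHRNG and CHRNA1 with MUSK were still called, and CHRND with CHRNE was not (r = 0.495, adjusted p = 0.13). The order of the 2 listed medians was then the same for all 12 probe sets, but the medians came close for CHRNE (7.33 in fetuses listed as IUGR and 7.38 in those listed as AGA) and for the brightest AGRN set (8.35 and 8.36 in the same order).

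Muscle fibre markers were bright in every fetus. ACTA1, CKM, DES, TTN, TNNT3 and TNNC2, genes of the contractile fibre, had medians from 12.62 to 13.48, and the embryonic and perinatal myosin genes MYH3 and MYH8 had no probe set under these symbols. The mean of the 6 markers, relative to each gene's mean, was -0.15 at lowest, -0.06 at the median and 0.10 at highest in fetuses listed as IUGR, against -0.07, 0.05 and 0.13 in those listed as AGA. It had r = 0.54 with CHRND, 0.59 with CHRNE, 0.53 with CHRNG and -0.14 with CHRNA1 over the 24 fetuses. The titin gene TTN (r = 0.77 with CHRNA1) went against the other 5 markers. Their part in the results was not tested.

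Of 16 motor nerve markers, 11 passed the filter and CHAT, SLC5A7, SNAP25, SYT1 and STMN2 did not. Choline acetyltransferase CHAT, which makes acetylcholine, had a median of 6.58. Among the 11, MNX1 (r = 0.62), SYN1 (0.56) and GAP43 (0.50) followed the background controls most closely. NEFL (-0.19) and ISL1 (-0.17) had a negative r with them. The mean of the 11 had r = -0.51 with CHRNB1, 0.48 with DOK7, 0.48 with AGRN and between -0.28 and 0.12 with the other 5 members, and was -0.14, -0.08 and 0.21 in fetuses listed as IUGR, against -0.20, 0.07 and 0.14 in those listed as AGA. Of 10 Schwann cell markers, 7 passed. Their mean had r = -0.63 with CHRNA1, 0.61 with CHRNE, 0.53 with CHRNG and 0.46 with CHRND, and was -0.18, -0.08 and 0.11 in fetuses listed as IUGR, against -0.01, 0.05 and 0.16 in those listed as AGA. Among these 7, ERBB3 (r = 0.68) and NGFR (0.61) had the highest r with CHRNG. The other kept Schwann cell markers had r between -0.12 (SOX10) and 0.20 (PMP22) with it. CDH19, which did not pass, went the other way (0.51 with CHRNA1 and -0.69 with CHRNG). SOX10 (0.69), GFAP (0.62) and NGFR (0.55) followed the background controls most closely of the 7, and S100B (0.01) least. Whether the marker signals come from nerve or Schwann cells, and whether these cells bear on the members, was not tested.

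Other genes of the junction varied about as much as genes at large. Of 61 listed genes in 7 groups, 54 were on the array and 43 were bright enough to be kept. Their median span was 0.44 against 0.42 over all filtered genes. The median of fetuses listed as IUGR was the higher in 18 of the 43. The correlations that follow are across 24 fetuses that share the main axis above and are given as descriptions. With the first principal component, UTRN had r = -0.93, LAMA4 -0.91, SNTB2 -0.90, BCHE -0.81 and COLQ 0.70. NRG1 (-0.003), SHC4 (-0.03) and CHRNA7 (-0.06) hardly followed it. The part of this axis in the r of these genes with CHRNA1 and CHRNG was not tested. Over all filtered genes, 36.3% had a positive r with CHRNA1 and 62.4% with CHRNG.

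In the synaptic cleft 6 of 8 listed genes were kept, 3 with a positive r with CHRNA1 and 4 with CHRNG. COLQ, which encodes the collagen tail that anchors acetylcholinesterase, sat with CHRNG (r = 0.61) and against CHRNA1 (-0.45), with medians of 7.42 in fetuses listed as IUGR and 7.70 in those listed as AGA. The related butyrylcholinesterase gene BCHE did the reverse (-0.59 with CHRNG, 0.55 with CHRNA1). Fetus 307 was lowest for BCHE (7.18) and fetus 338 highest (8.69). The acetylcholinesterase gene ACHE itself did not pass the filter (median 6.68). LAMB2, the synaptic laminin chain, had r = -0.66 with CHRNA1, and LAMA4 had 0.63.

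Beneath the membrane 8 of 9 were kept, 6 with a positive r with CHRNA1 and 4 with CHRNG. The utrophin gene UTRN, whose product ties the receptor lattice to actin, had the highest r with CHRNA1 of the 43 genes (0.75) and r = -0.63 with CHRNG. UTRN was lowest in fetus 307 (8.81) and highest in fetus 311 (9.87). The syntrophin genes SNTB1 (0.69) and SNTB2 (0.60) also sat with CHRNA1, SNTB2 over the widest span of the list (1.35). The dystroglycan gene DAG1 sat with CHRNG (0.60), and the genes of the cytoskeletal linkers MACF1 (0.33 with CHRNA1, 0.26 with CHRNG) and NES (0.29 and 0.38) had weak positive r with both.

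In neuregulin signalling, which acts on the synaptic nuclei, 6 of 7 were kept, 4 with a positive r with CHRNA1 and 3 with CHRNG. ERBB3 (r = 0.68) and ERBB2 (0.48) sat with CHRNG, whereas GABPA and GABPB1, the ETS factor subunits that bind the promoter element of synaptic genes in mouse, sat with CHRNA1 (0.61 and 0.45) and against CHRNG (-0.53 and -0.63). ERBB3 is a Schwann cell gene as well. NRG1 itself had r = 0.15 with CHRNA1 and 0.14 with CHRNG. Of MuSK effectors 11 of 13 were kept, 3 with a positive r with CHRNA1 and 7 with CHRNG. The kinase gene ABL1 had r = -0.69 with CHRNA1 and 0.61 with CHRNG, and the adaptor genes split, CRK with CHRNA1 (0.54) and CRKL with CHRNG (0.61).

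Of the factors that tie receptor genes to activity 5 of 11 were kept, 2 with a positive r with CHRNA1 and 4 with CHRNG. MYOG, the classical activator of subunit genes in denervated muscle, had no probe set under this symbol. MYF6 had r = 0.49 with CHRNA1 and -0.28 with CHRNG, and MYOD1 -0.31 and 0.57. HDAC9, a repressor of synaptic genes in innervated mouse muscle, had r = -0.60 with CHRNA1 and 0.60 with the background controls. Its medians were 7.14 in fetuses listed as IUGR and 7.51 in those listed as AGA. HDAC4 also had a negative r with CHRNA1 (-0.51), with medians of 7.82 and 8.02 in the same order. RUNX1 had r = 0.10 with CHRNA1. Of other receptor subunits 3 of 9 were kept, and the neuronal alpha gene CHRNA3 had a span of 1.22, with fetus 274 lowest (7.82) and fetus 272 highest (9.49). CHRNA3 sat with CHRNG (r = 0.60). All 4 listed genes of excitability and adhesion were kept, 2 with a positive r with CHRNA1 and 3 with CHRNG. Of these, ITGA7 had the highest r with CHRNG of the 43 genes (0.75) and r = -0.38 with CHRNA1.

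By likeness of pattern over the 24 fetuses (Pearson's r against all filtered genes), the nearest gene was WRN for CHRNA1 (0.85), SLC8A3 for CHRNB1 (0.77), CAPN6 for CHRND (0.86), PITX3 for CHRNE (0.84), MSC for CHRNG (0.83), TCEAL7 for MUSK (0.77), BAIAP2 for DOK7 (0.80) and ANKRD16 for AGRN (0.85). None of these was another member, which is not read as a result, since each was picked from 9709 genes.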

How the data were processed

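Total RNA of LDM from 24 fetuses was measured on Affymetrix Porcine Snowball arrays. The authors normalized the arrays by RMA in Expression Console and deposited log2 signals per probe set. The submitters' processing notes list GCOS 1.1.1. RMA equalizes the signal distributions of arrays and so removes differences in overall brightness. The detection calls made by the authors were not used here. The sources used here give no genome build for the array.

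The table held 47845 probe sets, of which 26426 carried 1 platform symbol, 123 were controls and 21296 were unnamed here. Platform symbols can be old and were used as given. Named probe sets brighter than the array median on 20 or more of the 24 arrays were kept (14867, for 9710 genes). The probe set of highest median stood for a gene in pair tests. Signals of no member split the fetuses into separate clusters (sought as a gap wider than 0.3 of the range that left 4 or more fetuses on either side). Python 3.11.15, numpy 2.4.6 and pandas 2.3.3 were used, and the scripts were tested on simulated data. The number of arrays limits precision.

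The labels gave no weight group, so all fetuses were left unassigned, the dams in the study's list served only as litters in 1 alternative, and the study's own model, with terms for weight group, sex and dam, was not run. Members and gene lists were chosen with earlier results of these data known. Named were all members, the listed junction and marker genes, and the gene most like each member, the first of 3 ranked. A planned relation of members with MYOG was not computed, since no probe set carried that symbol. Sequences were not analysed here.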

Additional observations from a re-analysis of the deposited data

How the results depend on the processing

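The 3 called pairs became 1 on values centred on the dam and permuted within dams (CHRND with CHRNG), 5 without fetuses 376 and 384, when CHRNA1 with AGRN and MUSK with AGRN were added, and numbered between 2 and 4 when each fetus was left out in turn. CHRND with CHRNG was called under every alternative run. CHRNA1 with MUSK was called under all but the dam setting and the mean of a gene's probe sets (r = 0.472), where CHRNA1 with AGRN and CHRNE with AGRN were added, and CHRND with CHRNE under all but the dam setting, the regressed control signal, the removed first component and the omission of single fetuses. No called r changed sign. Members related to the background controls numbered 2 in the main setting, 1 with the first component removed, 4 without fetuses 376 and 384 (CHRNA1 and MUSK added), 3 by rank correlation (CHRNA1 added) and between 2 and 3 with each fetus left out. Member probe sets wider than the median numbered 7 of 12, but 4 of 12 by the interquartile range and 4 of 13 against all named probe sets with no filter. The order of listed medians changed only for the second MUSK set, without fetuses 376 and 384. The dam setting, the omission of fetus 313 and of each fetus in turn, the rank correlation with the controls and the values within listings were chosen after seeing the data. No paired analysis of the listings was run, because the deposited labels give no groups or replicate numbers. The dam and sex in the study's own list entered no comparison of the listings. All member probe sets but CHRNG and the brighter CHRNA1 set had medians under the brightest background class. They can hold more unspecific signal, but were not compared with control classes of their own G and C content.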
